A study of Mus musculus with 6 samples.

Results

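The genes described here are the interferon-linked members of the PARP family with their partner ligase Dtx3l, set against the DNA-break PARPs of the same cells. They were taken by symbol, as Parp9, Dtx3l, Parp14, Parp10, Parp11, Parp12 and Zc3hav1 on the interferon side (7 genes) and Parp1, Parp2 and Parp3 as the comparison (3 genes), 10 of the 53700 genes listed. Each symbol named 1 identifier, and all 10 genes passed the filter on low values that left 12510 genes in the test. The expression values came from bulk RNA-seq of SL4, a luciferase-expressing mouse colorectal cancer cell line, in 3 libraries without SEMA6A overexpression (pLV-Control) and 3 libraries with stable lentiviral SEMA6A overexpression (pLV-SEMA6A). The paper names the RNA-seq control pLV-Control in its results but SL4 in its methods, so whether it carried an empty vector is unclear. The sources used here name no drug, cytokine or time course for these libraries. The methods describe no second, separately made pLV-SEMA6A line, so the overexpressed gene and any other difference between these cell lines cannot be told apart. Nothing states that the replicates were separate cultures, and the p-values then measure only the spread between these libraries, which may be technical.

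PARP enzymes take ADP-ribose from NAD+ and attach it to proteins, either as single units or as chains. Parp1, Parp2 and Parp3 are nuclear enzymes that are switched on by DNA breaks. The interferon-linked members are a separate group known from antiviral defence: several carry macrodomains, which bind ADP-ribose, or CCCH zinc fingers, which bind RNA, and they mostly add single ADP-ribose units or have lost the activity.

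Expression is given as TPM, a transcript abundance corrected for length, so levels can be compared between genes. The TPM listed per library added up to 984475 to 986444 in pLV-Control and 977400 to 977972 in pLV-SEMA6A. Genes above 0 TPM numbered 19340 to 19463 in pLV-Control and 18798 to 18887 in pLV-SEMA6A. No depth can be read from TPM, and the number of reads behind a value is unknown. Sema6a was listed at 0 TPM in each pLV-Control library and reached 98.7, 118 and 112 TPM with SEMA6A, the direction of the labels. Across the genes tested, Pearson's r of log2(TPM + 1) was 0.967 to 0.978 within pLV-Control, 0.974 to 0.978 within pLV-SEMA6A and 0.941 to 0.957 across groups. Of 9 epithelial and colonic markers none reached the filter, and their summed level was 0.13 to 0.49 TPM in pLV-Control and 0.25 to 0.54 TPM in pLV-SEMA6A, with Epcam, Cdx1 and Cdx2 listed at 0 in every library, so the epithelial side of the label was not seen in these markers. The 6 leukocyte markers summed to at most 0.06 TPM in any library, and the 3 endothelial markers to at most 0.15 TPM. The 5 fibroblast markers summed to 15.7 to 16.6 TPM in pLV-Control and 13.5 to 14.9 TPM in pLV-SEMA6A, with Pdgfra and Pdgfrb lower and Col1a1 higher by the test described further on, and their part in the results was not tested. In these bulk libraries, fewer cells of a type and less RNA per cell cannot be told apart.

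Promoter sequences are shown first, because interferon acts on such genes through short DNA elements. The interferon-stimulated response element (ISRE) is bound by IRF factors, and the gamma-activated site (GAS) by STAT dimers. The RefSeq promoter table of GRCm38.p6 matched 7 of the 10 genes, with 8 windows of 250 bases upstream of a start, and the genes left without a window were Parp9, Parp10 and Parp14. The ISRE was searched as GAAANNGAAA on both strands and the GAS as TTCNNNGAA, which is its own reverse complement. The ISRE letters occur in 2.98% of all 32851 promoter windows of this length and the GAS letters in 7.02%. Among the 8 windows, 1 held an ISRE match and the same 1 held a GAS match. That window belongs to the first listed start of Parp11, where the ISRE match begins 44 bases before the start and the GAS match 37 bases before it, so that the matches overlap. In the Parp11 sequence the capitals mark the joined ISRE and GAS matches. In the Parp1 sequence they mark GC boxes, searched as GGGCGG on both strands and found in 32.7% of all windows. Among the 8 windows, 3 held a GC box: those of Parp1, of Parp2 and of the other listed start of Parp11. The Dtx3l and Zc3hav1 windows held no match to any of the motifs, which says only that these letters are not in these windows.
Parp11, first listed start, chr6:127446590-127446839, plus strand: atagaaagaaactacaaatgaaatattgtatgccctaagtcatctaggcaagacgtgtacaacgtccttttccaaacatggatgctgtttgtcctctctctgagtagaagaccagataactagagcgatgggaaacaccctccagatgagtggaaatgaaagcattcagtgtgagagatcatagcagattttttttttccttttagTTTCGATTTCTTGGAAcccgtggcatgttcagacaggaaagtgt
Dtx3l, chr16:35939028-35939277, minus strand: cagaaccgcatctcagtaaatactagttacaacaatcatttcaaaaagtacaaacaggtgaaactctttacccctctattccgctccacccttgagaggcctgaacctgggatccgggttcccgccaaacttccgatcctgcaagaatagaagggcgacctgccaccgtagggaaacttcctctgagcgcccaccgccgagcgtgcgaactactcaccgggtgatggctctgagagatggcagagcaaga
Zc3hav1, chr6:38354604-38354853, minus strand: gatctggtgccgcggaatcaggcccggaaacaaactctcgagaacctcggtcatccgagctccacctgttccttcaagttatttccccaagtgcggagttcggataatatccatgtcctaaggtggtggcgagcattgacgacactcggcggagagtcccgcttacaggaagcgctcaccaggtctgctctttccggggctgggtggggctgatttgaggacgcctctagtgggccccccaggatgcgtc
Parp1, chr1:180568641-180568890, plus strand: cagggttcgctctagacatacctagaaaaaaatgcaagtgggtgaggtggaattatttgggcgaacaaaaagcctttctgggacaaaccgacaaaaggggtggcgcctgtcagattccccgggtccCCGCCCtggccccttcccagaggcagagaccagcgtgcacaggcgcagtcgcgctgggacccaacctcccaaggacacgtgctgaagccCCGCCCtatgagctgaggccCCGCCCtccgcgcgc

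The Parp11 window had a GC content of 40.4%, the Dtx3l window 52.8%, the Zc3hav1 window 58.8% and the Parp1 window 61.6%. The other listed start of Parp11 had 57.6% and held neither an ISRE nor a GAS match, but 1 GC box. Values per start were not part of the table, so which Parp11 start these cells used was not tested.

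Of the 7 interferon-linked genes, 6 fell in pLV-SEMA6A, by 1.86-fold for Parp12 to 4.38-fold for Parp14 on the linear TPM scale, while Zc3hav1 did not fall. None of Parp1, Parp2 and Parp3 passed the test. The test was limma on log2(TPM + 1) over all 12510 genes with Benjamini-Hochberg adjustment, and differentially expressed genes (DEGs) needed an adjusted p below 0.05 with a log2 fold change beyond 0.5 either way. By this rule 6 of the 7 were downregulated DEGs and 0 upregulated, where 10.8% of all genes tested were downregulated DEGs and 5.12% upregulated. Taking the adjusted p alone, 6 passed as lower and 1 as higher, where 28.2% of all genes passed as lower and 19.5% as higher. The median log2 fold change was −1.33 over the 7 genes, 0.02 over Parp1 to Parp3 and −0.06 over all genes tested. With median centring of the libraries, the split of DEGs over all genes moved from 640 higher and 1347 lower to 1002 higher and 961 lower, and the 6 interferon-linked genes stayed downregulated DEGs. In the exact two-sided permutation test each of these 6 genes had p = 0.1, the lowest that 3 against 3 libraries allow. Zc3hav1 and Parp1 had the same p of 0.1, so this test does not separate them from the 6. Any gene whose groups do not overlap reaches this p, which held for 34.7% of all genes tested as lower and 23.8% as higher.

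**Figure D1:**
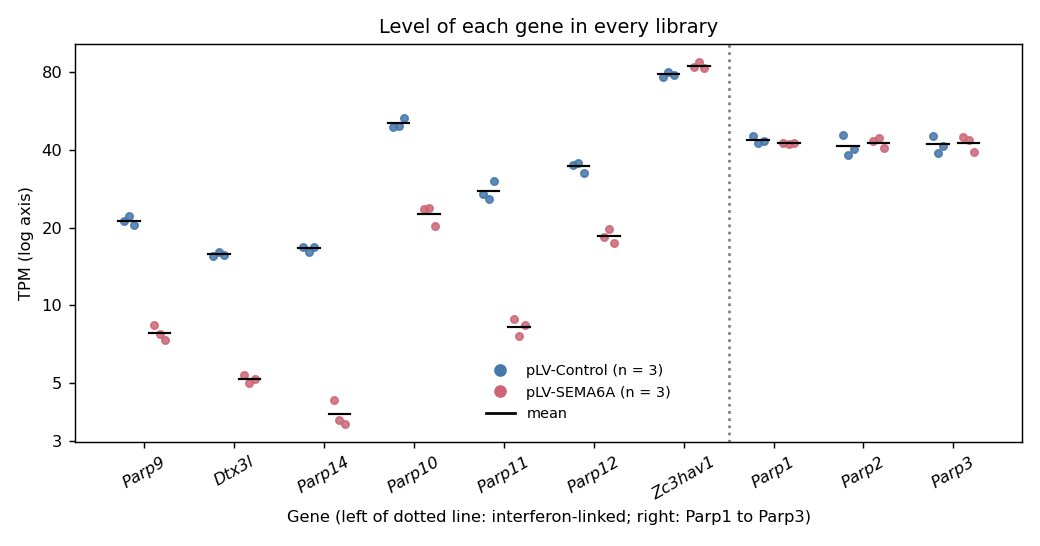
TPM (log axis) of the 10 genes in each library, with pLV-Control in blue, pLV-SEMA6A in red and the mean as a black bar (n = 3 each). The pLV-SEMA6A points of Parp9, Dtx3l, Parp14, Parp10, Parp11 and Parp12 lie well below all their pLV-Control points. For Parp1, Parp2 and Parp3 the points of both groups sit at about the same height, between 38.4 and 45.6 TPM. The pLV-SEMA6A points of Parp1 are just below its pLV-Control points.

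Parp14, the largest protein of the group, carries macrodomains and a mono-ADP-ribosyltransferase domain, and had the largest fold among the 10 genes. It measured 16.8, 16.1 and 16.9 TPM in the pLV-Control libraries, against 4.29, 3.59 and 3.49 TPM in those of pLV-SEMA6A. The groups were far apart, and the highest pLV-SEMA6A library was well below the lowest pLV-Control library. It averaged 16.6 ± 0.41 against 3.79 ± 0.44 TPM (SD, n = 3 each), with a log2 fold change of −1.88 ± 0.08 (standard error) and a limma-adjusted p of 1.5e-05. Its change ranked 96 among the 12510 genes, counted from the lowest.

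Parp9 and Dtx3l encode the partners of 1 complex: PARP9 is a macrodomain protein with little transferase activity of its own, and DTX3L is the ubiquitin ligase that binds it. Parp9 measured 21.3, 22.2 and 20.5 TPM in the pLV-Control libraries, against 8.42, 7.75 and 7.38 TPM in those of pLV-SEMA6A. Dtx3l measured 15.6, 16.1 and 15.7 TPM in the pLV-Control libraries, against 5.39, 5.02 and 5.19 TPM in those of pLV-SEMA6A. Neither gene had overlapping groups, and Dtx3l was the lower of the pair in every library. Parp9 fell 2.71-fold on the linear TPM scale. On the log2(TPM + 1) scale its log2 fold change was −1.33 ± 0.07 (standard error), with a limma-adjusted p of 2.3e-05. Dtx3l fell 3.04-fold in linear TPM, and its log2 fold change on log2(TPM + 1) was −1.44 ± 0.06 (standard error), with a limma-adjusted p of 1.1e-05. The log2 ratio of Dtx3l to Parp9 within a library, taken on TPM + 1, was −0.41 ± 0.04 in pLV-Control and −0.51 ± 0.07 in pLV-SEMA6A (SD, n = 3 each), a difference of −0.10 (exact permutation p = 0.1, two-sided, the smallest that the design allows). The groups of this ratio almost touched, at −0.4366 in pLV-Control replicate 2 and −0.4370 in pLV-SEMA6A replicate 3. The genes overlap on opposite strands, and 8.56% of the 31-base stretches of Parp9 transcripts occur as reverse complements in other genes, mainly Dtx3l. For Dtx3l the share was 9.68%, mainly Parp9. Whether the counting used strand is not given in the sources used here, so reads from the overlap could have gone to either gene.

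Parp11 encodes a mono-ADP-ribosyltransferase with a WWE domain. It measured 26.9, 25.9 and 30.2 TPM in the pLV-Control libraries, against 8.83, 7.65 and 8.39 TPM in those of pLV-SEMA6A. All pLV-SEMA6A libraries were far below the pLV-Control libraries, of which replicate 3 was the highest. It fell 3.34-fold in linear TPM, and its log2 fold change on log2(TPM + 1) was −1.62 ± 0.08 (standard error), with a limma-adjusted p of 2.2e-05.

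Parp10 encodes a mono-ADP-ribosyltransferase with RNA recognition motifs. It measured 48.9, 49.6 and 53.2 TPM in the pLV-Control libraries, against 23.6, 23.8 and 20.2 TPM in those of pLV-SEMA6A. The groups did not overlap. It fell 2.24-fold in linear TPM, and its log2 fold change on log2(TPM + 1) was −1.13 ± 0.07 (standard error), with a limma-adjusted p of 6.0e-05. Of its 31-base stretches 4.06% also occur in other genes, mainly its neighbour Plec, so a small part of its reads could have been split.

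Parp12 is the CCCH zinc finger member that keeps a transferase domain and is the closest in layout to Zc3hav1. It measured 35.1, 35.7 and 32.7 TPM in the pLV-Control libraries, against 18.4, 19.8 and 17.4 TPM in those of pLV-SEMA6A. The groups did not overlap, and 53.7% of the pLV-Control mean remained. The log2 fold change of −0.86 ± 0.06 (standard error) and a limma-adjusted p of 9.0e-05 was the smallest of the 6 falls.

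Zc3hav1, the zinc finger antiviral protein ZAP, binds CpG-rich RNA and brings it to decay, and its PARP-like domain has no activity. It measured 76.6, 80.4 and 78.1 TPM in the pLV-Control libraries, against 83.4, 87.4 and 82.6 TPM in those of pLV-SEMA6A. The groups did not overlap, but here pLV-SEMA6A was the higher one, by 1.08-fold. The log2 fold change was 0.11 (95% interval 0.02 to 0.19, adjusted p = 0.0458 from limma). The call was lost in 9 of 14 alternatives. With any 1 of the 6 libraries left out, the adjusted p from limma was 0.0532 to 0.126, and the log2 fold change stayed positive at 0.083 to 0.13.

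Parp1, the main producer of ADP-ribose chains at DNA breaks, measured 45.1, 42.7 and 43.4 TPM in the pLV-Control libraries, against 42.5, 42.3 and 42.6 TPM in those of pLV-SEMA6A. Every pLV-SEMA6A library was just below the lowest pLV-Control library, by less than the spread among the pLV-Control libraries. The log2 fold change was −0.04 (95% interval −0.13 to 0.04, adjusted p = 0.366 from limma), and it became 0.05 with median centring. Parp2, which shares the break response with Parp1, measured 45.6, 38.4 and 40.3 TPM in the pLV-Control libraries, against 43.1, 44.3 and 40.5 TPM in those of pLV-SEMA6A. Its groups overlapped, and the log2 fold change was 0.05 (95% interval −0.13 to 0.22, adjusted p = 0.629 from limma), or −0.0070 without pLV-Control replicate 2. Parp3, a mono-ADP-ribosyltransferase of break repair, measured 45.4, 39.1 and 41.4 TPM in the pLV-Control libraries, against 45.0, 43.7 and 39.2 TPM in those of pLV-SEMA6A. Its groups overlapped as well, and the log2 fold change was 0.02 (95% interval −0.15 to 0.20, adjusted p = 0.821 from limma), or −0.03 without pLV-Control replicate 2 and −0.02 without pLV-SEMA6A replicate 1. The intervals of these 3 genes lay inside the minimum of 0.5 on either side. Counting both lists, 7 of the 10 genes had all pLV-SEMA6A libraries below all pLV-Control libraries and 1 had them above, where 34.7% of all genes tested were below and 23.8% above.

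**Figure D2:**
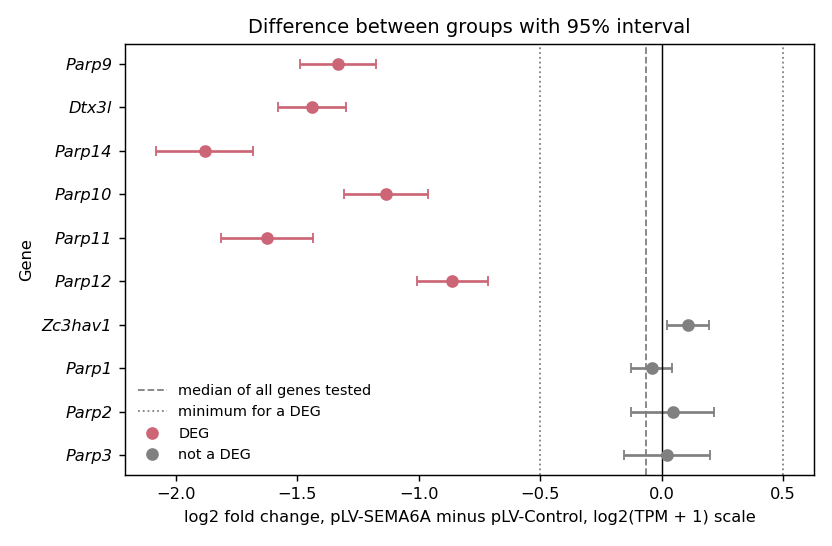
log2 fold change (pLV-SEMA6A minus pLV-Control, log2(TPM + 1) scale) of each gene with its 95% interval from limma. The dashed line is the median of all genes tested (−0.06), dotted lines mark the minimum of 0.5 for a DEG, and red points are DEGs: the 6 red intervals all end below −0.5, and the intervals of Zc3hav1 and Parp1 to Parp3 lie near 0.

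The order of the levels changed between the groups. In pLV-Control, Zc3hav1 was the highest at 78.3 ± 1.91 TPM, followed by Parp10 at 50.6 ± 2.28 TPM (SD, n = 3 each). Next came Parp1, Parp3 and Parp2 between 41.4 and 43.7 TPM, whose libraries overlapped. Parp12, Parp11 and Parp9 followed without overlap between neighbours, and Parp14 and Dtx3l closed the order, with the lowest Parp14 library at 16.14 TPM and the highest Dtx3l library at 16.12 TPM. In pLV-SEMA6A, Zc3hav1 stayed the highest at 84.5 ± 2.57 TPM, and Parp2, Parp3 and Parp1 came next between 42.4 and 42.7 TPM with overlapping libraries. Parp10, at 22.5 ± 2.01 TPM, now lay below these 3 genes and above Parp12. Parp11 and Parp9 overlapped, at 8.29 ± 0.60 and 7.85 ± 0.53 TPM, and Parp14 was the lowest gene, under Dtx3l.

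Each gene was also set against Parp1 of the same library, as the log2 ratio of TPM + 1, a scale that draws the ratios of low genes towards 0. On this scale the ratio of Parp14 to Parp1 was −1.34 ± 0.03 in pLV-Control and −3.18 ± 0.13 in pLV-SEMA6A (SD, n = 3 each), a difference of −1.84. The ratio of Parp10 to Parp1 changed sign, from 0.21 ± 0.09 to −0.89 ± 0.13 (SD, n = 3 each), since Parp10 exceeded Parp1 in each pLV-Control library and was below it in each pLV-SEMA6A library. The ratio of Zc3hav1 to Parp1 went from 0.83 ± 0.07 to 0.98 ± 0.05 (SD, n = 3 each). For the 4 other genes the difference was −1.58 for Parp11, −1.40 for Dtx3l, −1.29 for Parp9 and −0.82 for Parp12. Each of the 8 ratios, that of Dtx3l to Parp9 included, had an exact permutation p of 0.1, two-sided, which was 0.1 after Benjamini-Hochberg adjustment over the 8 ratios and is the smallest that the design allows.

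Summed over the 6 genes that fell, the level was 164.6, 165.7 and 169.1 TPM in pLV-Control and 68.9, 67.6 and 62.1 TPM in pLV-SEMA6A. The sum of Parp1, Parp2 and Parp3 was 136, 120.1 and 125 TPM in pLV-Control and 130.6, 130.3 and 122 TPM in pLV-SEMA6A. Of the summed TPM of 16 PARP genes, Parp9, Parp10, Parp11, Parp12 and Parp14 made up 26.9% ± 0.29 in pLV-Control and 13.9% ± 0.41 in pLV-SEMA6A (SD, n = 3 each). Zc3hav1 took 13.996% ± 0.48 and 19.3% ± 0.41, and Parp1 to Parp3 took 22.7% ± 1.38 and 29.1% ± 0.33 (SD, n = 3 each). The sum of all 16 genes was 560 ± 6.85 TPM without and 439 ± 16.03 TPM with SEMA6A (SD, n = 3 each).

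**Figure D3:**
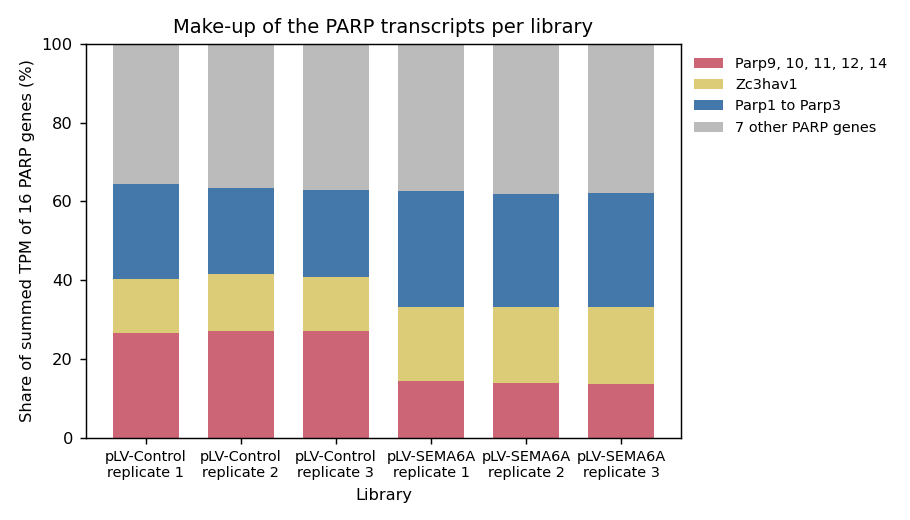
Share (%) of the summed TPM of 16 PARP genes in each library, stacked for the 5 interferon-linked PARPs that fell, Zc3hav1, Parp1 to Parp3 and 7 other PARP genes. The red part is 26.6 to 27.1% in the pLV-Control bars and 13.5 to 14.3% in the pLV-SEMA6A bars, with little variation inside a group.

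The 7 remaining PARP genes were all tested. By the adjusted p, 6 were lower and 0 higher (28.2% and 19.5% of all genes tested), around a median of −0.30 (log2 fold change). With each library centred on its median 4 were lower, and the share over all genes by the adjusted p was not computed there. Without that centring, 2 of the 7 were downregulated DEGs and 0 upregulated (10.8% and 5.12% of all genes tested). The DEGs were Parp6, a mono-ADP-ribosyltransferase, which fell from 21.4 ± 0.53 to 11.99 ± 0.71 TPM (log2 fold change −0.79), and Parp4, the PARP of vault particles, which fell from 23.0 ± 1.14 to 15.9 ± 0.95 TPM (−0.51, SD and n = 3 for each mean). Parp4 was no longer a DEG when centred on the median (−0.42), when rescaled without mitochondrial and the 10 highest genes (−0.48), and without pLV-Control replicate 3 or pLV-SEMA6A replicate 2 (−0.47 each). Of the tankyrases, which build ADP-ribose chains, Tnks had a log2 fold change of −0.16, and Tnks2 had the same value and did not pass the test (adjusted p = 0.131 from limma). The other Deltex ligases, the family of Dtx3l, were lower by the adjusted p in 3 of 3 tested genes (28.2% of all genes tested). Dtx3 fell from 72.5 ± 4.56 to 41.5 ± 0.95 TPM (mean ± SD of 3 libraries, log2 fold change −0.79), and Dtx2 had a log2 fold change of −0.40. Dtx1 was listed at 0.04 TPM or less in every library and was not tested.

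ADP-ribose is taken off again by hydrolases. Of 7 tested genes of this kind, the adjusted p put 3 lower and 1 higher, around a median log2 fold change of 0.04, where all genes tested gave 28.2% lower and 19.5% higher. Median centring gave 2 lower and 3 higher, and the share over all genes by the adjusted p was not computed for that scaling. Macrod1, a macrodomain hydrolase that removes single ADP-ribose units, fell from 25.5 ± 1.198 to 12.9 ± 0.86 TPM (log2 fold change −0.93), and Nudt16, a phosphodiesterase, from 4.84 ± 0.27 to 2.64 ± 0.47 TPM (−0.69, SD and n = 3 for each mean). Adprh, which frees arginine of ADP-ribose, rose from 36.9 ± 2.19 to 51.9 ± 1.95 TPM (mean ± SD of 3 libraries, log2 fold change 0.48). It was a DEG without pLV-Control replicate 2 (0.52) or pLV-SEMA6A replicate 1 (0.51), and after median centring (0.57). Rescaling without mitochondrial and the 10 highest genes also made it a DEG (0.52). Adprs, the serine hydrolase, was at 0.17 and did not pass (adjusted p = 0.0626 from limma), and Parg, which digests the chains, was at 0.10 (adjusted p = 0.250 from limma). Adprs passed in 3 of 14 alternatives, among them without pLV-Control replicate 3 (0.22).

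Among 12 partners of Parp1 in break repair, 3 were lower, 2 were higher and 7 did not pass, with a median log2 fold change of −0.04. These counts were near the shares over all genes tested, 28.2% lower and 19.5% higher. Hpf1, the cofactor that directs PARP1 to serine, was at 64.5 ± 4.03 and 66.4 ± 5.01 TPM (SD, n = 3 each) and did not pass (adjusted p = 0.647 from limma), nor did the scaffold Xrcc1 (0.525) or the ligase Lig3 (0.866). Aplf, which reads ADP-ribose chains, was the 1 DEG of the list, with a log2 fold change of −0.61, and the polymerase Polb was at −0.39. Of all genes tested, 10.8% were downregulated DEGs. Timeless, a replication fork protein, rose with a log2 fold change of 0.48, short of a DEG. It became one without pLV-Control replicate 2 (0.52), pLV-Control replicate 3 (0.53) or pLV-SEMA6A replicate 3 (0.53), and after median centring. The same held with a pseudocount of 0.1 (0.51) and when rescaled without mitochondrial and the 10 highest genes (0.51).

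ZAP works with cofactors, of which 4 were listed. Trim25, its ubiquitin ligase partner, fell from 60.1 ± 3.34 to 30.04 ± 4.13 TPM (log2 fold change −0.98), and the nuclease Khnyn from 23.3 ± 0.58 to 15.8 ± 0.71 TPM (−0.53, SD and n = 3 for each mean). N4bp1, a related nuclease, was also lower by the adjusted p, and the helicase Dhx30 did not pass (adjusted p = 0.366 from limma). By the adjusted p 3 of the 4 cofactors were lower, of which 2 were DEGs, where 28.2% of all genes tested were lower and 10.8% were downregulated DEGs. Centred on the median, Khnyn was at −0.44 and no longer a DEG.

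NAD is the substrate of the PARPs, and 9 genes of its metabolism were tested. By the adjusted p, 3 were lower and 2 higher. Over all genes tested the shares were 28.2% and 19.5%, so the NAD counts by the adjusted p were near the background. With each library centred on its median 1 was lower, and the share over all genes by the adjusted p was not computed there. Without that centring, 1 of the 9 was a downregulated DEG and 2 were upregulated (10.8% and 5.12% of all genes tested). Nampt, which sets the pace of NAD salvage, fell from 63.4 ± 1.59 to 42.4 ± 1.18 TPM (mean ± SD of 3 libraries, log2 fold change −0.57). After median centring it was at −0.47 and no longer a DEG. Nadk, the NAD kinase, rose from 102.6 ± 2.99 to 147 ± 1.56 TPM (log2 fold change 0.52, or 0.495 and just short of a DEG without pLV-Control replicate 1), and Cd38, an NAD glycohydrolase, from 1.18 ± 0.28 to 2.93 ± 0.13 TPM (0.86, SD and n = 3 for each mean). Nadsyn1, the NAD synthetase, had a log2 fold change of −0.33 and did not pass (adjusted p = 0.0743 from limma), but did without pLV-SEMA6A replicate 2 (−0.47).

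The transcription factors that act on ISRE and GAS elements were lower by the adjusted p in 7 of 7 genes (28.2% of all genes tested), of which 5 were downregulated DEGs (10.8%), with a median log2 fold change of −1.21. Irf7, which amplifies interferon responses, fell from 213 ± 3.12 to 23.6 ± 1.85 TPM (mean ± SD of 3 libraries, log2 fold change −3.13). Further DEGs were Stat2 (−1.71), Irf9 (−1.21) and Irf1 (−1.13). Irf2 and Irf3 had log2 fold changes of −0.41 and −0.30. The part of these factors in the change of the PARP genes was not tested.

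**Figure D4:**
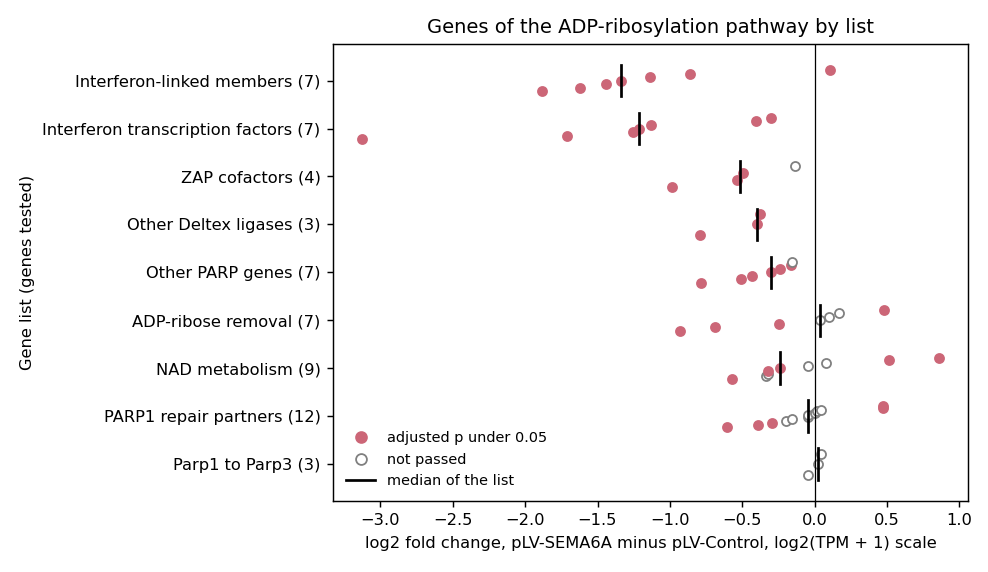
log2 fold change (log2(TPM + 1) scale) of every tested gene of each list, filled where the adjusted p was under 0.05, with the median of the list as a black bar. The medians of the interferon-linked genes (−1.33) and the interferon transcription factors (−1.21) lie to the left of the other medians, which run from −0.51 to 0.04, while single genes such as Zc3hav1, Irf2 and Irf3 lie among the other lists.

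Parp14, Dtx3l and Parp9 follow each other on chromosome 16, and the nearest tested protein-coding genes outside the group were taken in the RefSeq order. On the Parp14 side Hspbap1 rose from 12.8 ± 1.16 to 19.0 ± 1.44 TPM (log2 fold change 0.54, adjusted p = 0.00251 from limma), and at 0.47 without pLV-Control replicate 1 or 0.48 without pLV-SEMA6A replicate 2 it was no longer a DEG. On the Parp9 side Kpna1, an importin, went from 25.7 ± 0.36 to 21.5 ± 0.40 TPM (−0.25, adjusted p = 0.00277 from limma, SD and n = 3 for each mean). Beside Parp10 on chromosome 15, Plec was at 0.24 and Grina at −0.68. Beside Parp12 on chromosome 6, Kdm7a was at −0.62 and Hipk2 at 0.28. The neighbours of Parp11, Zc3hav1, Parp1 and Parp2 ran from −0.39 (Tep1) to 0.12 (Ccnd2), and none of them was a DEG. Beside Parp3 on chromosome 9, Rrp9, a ribosome biogenesis factor, rose from 60.9 ± 2.92 to 89.1 ± 2.55 TPM (mean ± SD of 3 libraries, log2 fold change 0.54). On the other side of Parp3, Pcbp4 was at 0.43.

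The genes with the most similar profile were found by the Euclidean distance of centred log2(TPM + 1) over the 6 libraries, which is governed by the difference between the groups. Nearest to Parp14 were AW011738, Xaf1 and Apol9a, with log2 fold changes of −1.88, −1.92 and −1.87 and distances of 0.07, 0.17 and 0.17. Nearest to Dtx3l were Ptx3, a secreted pentraxin (−1.39), Ifit1, an interferon-induced RNA-binding protein (−1.37), and Trim34a (−1.41). Nearest to Parp9 were Psme2, a proteasome activator subunit (−1.38), Prr13 (−1.25) and again Ptx3, each at a distance of 0.12.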

How the data were processed

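Poly-A-selected RNA of 3 pLV-Control and 3 pLV-SEMA6A libraries was sequenced on an Illumina platform. The submitters' processing notes name Bowtie2, HISAT and RSEM and the build mm39, with no roles. The authors deposited 1 TPM value per gene and library, which is the unit the values and RSEM point to, since the header names none. The 2 columns of group means by the authors were not used. The authors' comparison used DESeq2, which needs read counts that TPM does not hold.

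Genes averaging 1 TPM or more were kept. Their log2(TPM + 1) values went into limma 3.58.1 (R 4.3.3), using a trended prior and no covariate beside the group. A pseudocount of 1 understates changes of low genes. P-values were adjusted by Benjamini-Hochberg over all genes tested. The members and gene lists were chosen with earlier results of these data known. From each list, up to 2 of the largest changes each way and every DEG are named, except items of the repair and transcription factor lists that are not reported here, and Parg, Tnks, Tnks2, Dtx1, Hpf1, Xrcc1, Lig3, N4bp1, Dhx30, Irf2, Irf3, the neighbouring genes and the promoter motifs were chosen after their values were seen. Promoter windows are RefSeq sequences on GRCm38.p6, not on mm39. Shared 31-base stretches were counted over GENCODE M21 transcripts. The limma fit, with and without the replicate block, was tested on simulated data, and the other steps were not.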

Additional observations from a re-analysis of the deposited data

How the results depend on the processing

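The 6 falls of Parp9, Dtx3l, Parp14, Parp10, Parp11 and Parp12 kept their direction and an adjusted p under 0.05 from limma in all 14 refits of each (another pseudocount, other filters, scalings and spread models, the replicate block and each library left out). Over those refits the log2 fold change was −2.11 to −1.79 for Parp14 and −0.91 to −0.77 for Parp12. With a minimum log2 fold change of 1, 5 of the 6 stayed DEGs, without Parp12. Over the whole table the count of DEGs was 1987. It was 5959 by the adjusted p alone and 385 with a minimum of 1. Zc3hav1 lost the threshold in 9 of 14 refits. Deviations from the group means had a mean correlation of −0.06 between libraries of 1 number, against 0.03 between other numbers. Centring within each group holds such correlations near 0 on average, so they cannot exclude a pairing. Nothing known is paired by the replicate number. With the replicate block 1924 genes were DEGs, and among the 10 members Zc3hav1 lost its call (adjusted p = 0.0598) and no other call changed. Centring each library on its median moved the median of all genes by 0.09. TPM keeps no depth, so no detection limit can be given.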
